A study of Mus musculus with 6 samples.

Results

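Nuclear genes of the mitochondrial respiratory chain and ATP synthase were read out on 6 Affymetrix mouse arrays, as the genes whose symbol in the platform annotation begins with Nduf, Uqcr, Cox4i, Cox5, Cox6, Cox7, Cox8 or Atp5, or is Sdha, Sdhb, Sdhc, Sdhd, Cyc1 or Cycs. There were 92 such genes among 18192 with a probe set naming them alone, and 184 probe sets among 45033. The RNA came from mouse C2C12 myoblasts, which stop dividing and fuse into contractile myotubes once serum is lowered. All cultures were kept for 28 hours under 2% horse serum. The 3 control samples had been transfected with a GFP short hairpin RNA (shRNA) and the 3 knockdown samples with a PRDM2 shRNA, whose target PRDM2 is a histone methyltransferase of the PR domain family. No other allele or agent is named for either group. The labels number the arrays 1 to 3 in each group and call them biological replicates. They do not say whether transfected cells were selected or came from separate cultures, so the tests measure the spread between these arrays.

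The respiratory chain moves electrons from NADH (complex I) and succinate (complex II) through ubiquinone, complex III and cytochrome c to oxygen at complex IV, and ATP synthase uses the proton gradient made on the way. Most subunits are encoded in the nucleus, and only these were read here. Skeletal muscle replaces some small subunits of complex IV with muscle isoforms, encoded by Cox6a2, Cox7a1 and Cox8b, as fibres form and mature. Coactivators of the PGC-1 family and nuclear respiratory factors are known to drive the genes as a group.

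Values are log2(intensity + 16) after quantile normalization, so 4 is the lowest value the scale allows, and a gene is represented by its brightest probe set. The median gene had a mean of 5.36 on this scale. Of the 92 genes, 85 lay at or above it and 74 had a mean of at least 8. Among the 7 dimmer ones were Cox7a1, the dim isoform genes Cox4i2, Cox6b2 and Cox7b2, and Ndufa4l2. Ndufb4 and Cox7c were also dim, and for Ndufb4 brighter probe sets name several genes at once. The 10 probe sets that name a respiratory chain gene together with another gene were not counted.

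Some facts of the arrays touch every result. Prdm2, the targeted gene, read 6.19, 6.42 and 5.94 in controls 1, 2 and 3, and 6.67, 6.32 and 6.02 in knockdowns 1, 2 and 3. These values come from its brightest probe set alone. That probe set was not lower on the arrays labelled knockdown, with a log2 fold change of 0.15 (SE 0.19) for knockdown minus control. Both group names and every direction therefore rest on the labels. Control 2 lay close to knockdown 2: over the 92 genes the median absolute log2 difference between these arrays was 0.05, against 0.11 to 0.21 for the other 14 pairs. Lead values are therefore also given without control 2. All 18 myogenic markers examined, among them Des, Myog and Actc1, lay at or above the median gene. Their summed intensity was 27054 in control 1 and between 33328.5 and 33703 on the other 5 arrays. Not every marker was low in control 1, since Myod1, Cdh15 and Chrna1 were highest there. None of 6 adipocyte markers reached the median gene, and 3 of 8 cardiac and 5 of 8 fibroblast markers did. The summed intensity of the fibroblast markers was highest on the arrays numbered 2, at 7171 for control 2 and 7002 for knockdown 2, against 5320 to 6105 on the others. The single markers split. Among the controls, Col1a1, Col1a2 and Pdgfra were highest in control 2, whereas Dcn, Col3a1, Lum, Thy1 and Tcf21 were lowest there. In Col1a1, Dcn and the myogenic marker Myf5, control 2 lay near all 3 knockdowns and far from controls 1 and 3. Col1a1 read 6.82, 9.74 and 6.80 in controls 1, 2 and 3, and 9.99, 9.75 and 9.10 in knockdowns 1, 2 and 3. In the same order Dcn read 7.55, 5.07 and 7.66, then 4.53, 4.90 and 5.17. Myf5 read 7.55, 5.835 and 7.60, then 5.504, 5.80 and 5.73. In Pdgfra control 2, at 6.36, was near knockdown 2 alone, at 6.23, against 5.25 and 5.54 in knockdowns 1 and 3.

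Most respiratory chain genes were slightly lower on the knockdown arrays, and none passed the test. The log2 fold change was below 0 in 70 of the 92 genes (76.1%), whereas it was below 0 in 51.2% of all genes and in 51.5% of the 2033 genes with a mean of at least 8. The median over the 92 genes was -0.09, against -0.0033 over all genes and -0.0057 over the bright ones. Single values ran from -0.47 for Cox7a1 to 0.61 for Cox6a2, both muscle isoforms of complex IV. The average level of the 92 genes was 9.08, 9.04 and 9.19 in controls 1, 2 and 3, and 8.99, 9.02 and 9.10 in knockdowns 1, 2 and 3. The groups thus overlapped, and the difference of -0.06 was smaller than the SD of 0.08 among the controls. Whether fewer cells carrying these RNAs or less RNA per cell lay behind a lower value cannot be told apart in bulk RNA.

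At an adjusted p of 0.05 (limma, Benjamini-Hochberg over all genes) 0 of the 92 genes were called, and 0% of all genes were. At an unadjusted p under 0.05 there were 2 lower genes, Cox7a1 and Cox6a1, and 0 higher ones, while 3.3% of all genes passed that level, 2.11% as lower and 1.19% as higher. In 8 of the 92 genes (8.70%) every knockdown value lay below every control value, compared with 4.24% of all genes and 3.69% of the bright ones. These were Cox4i1, Cox5b, Cox6a1 and Cox7a1 of complex IV, Cyc1 of complex III, Ndufb8 and Ndufc1 of complex I, and Atp5o of ATP synthase. The opposite, every knockdown value above every control value, occurred in 0 of the 92 genes and in 2.93% of all genes. The 8 genes are a description without a test of their number.

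**Figure D1:**
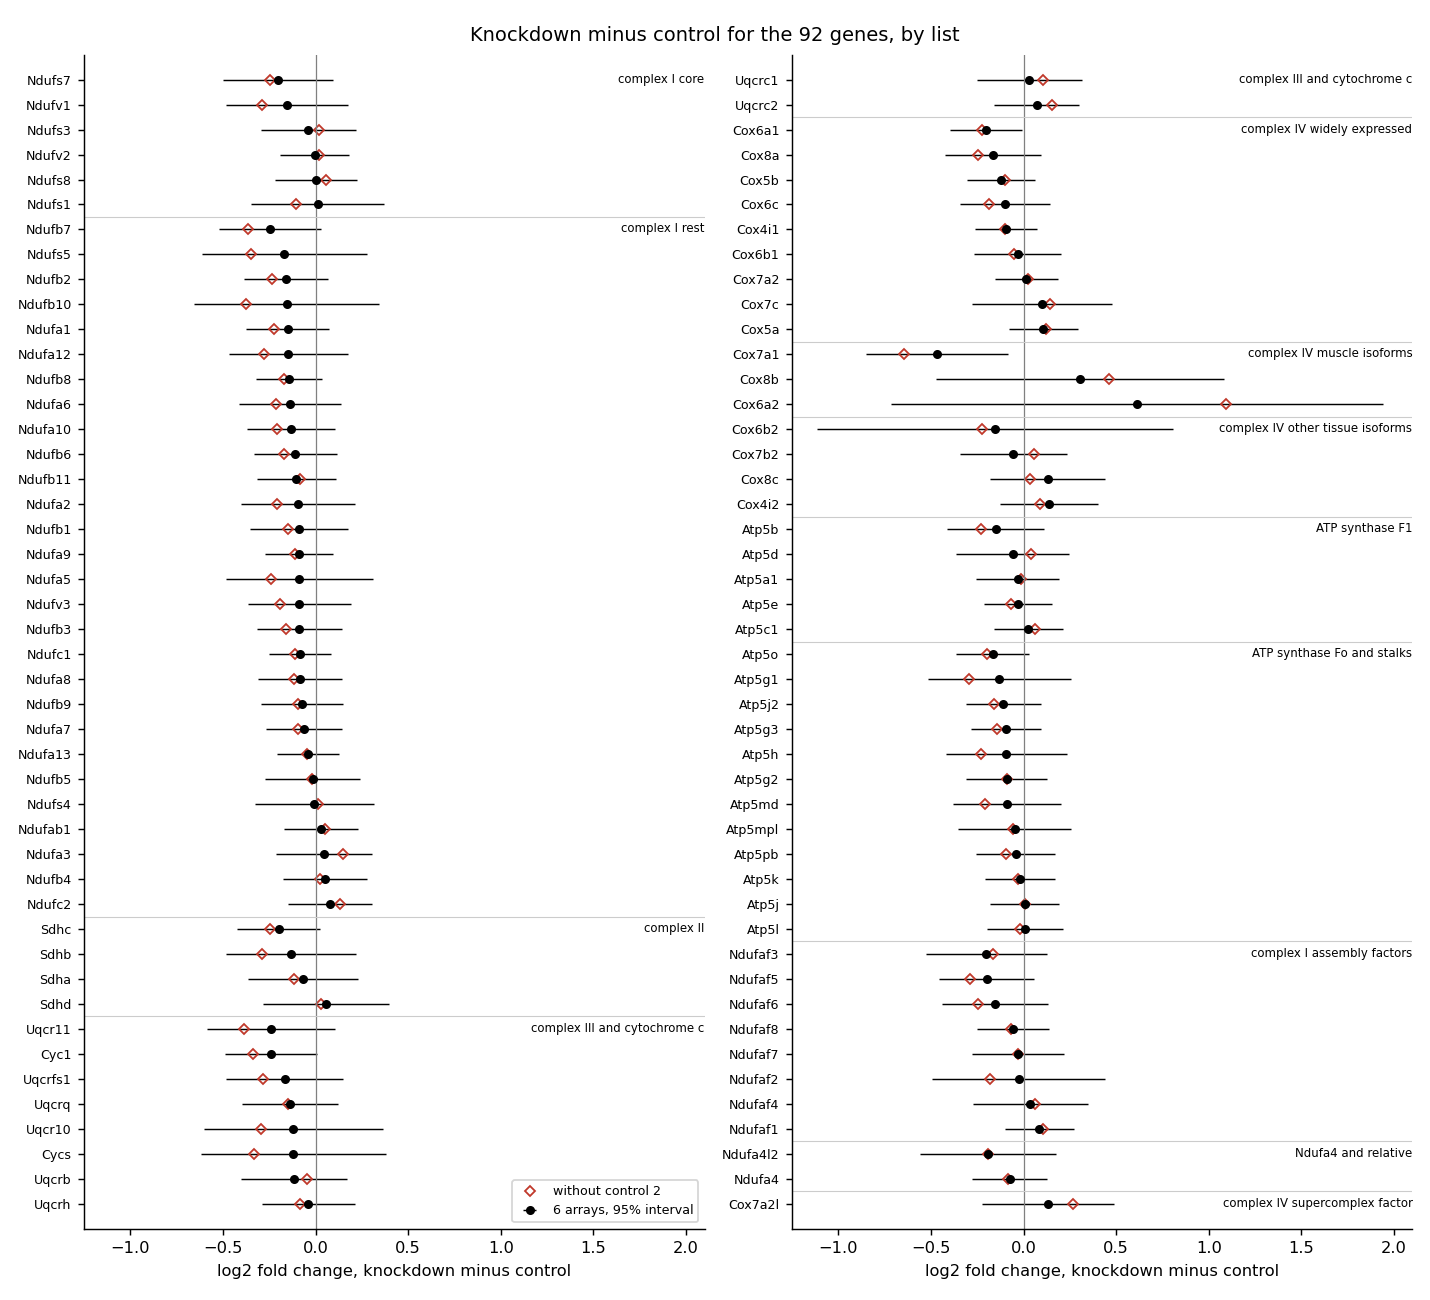
Log2 fold change, knockdown minus control, for each of the 92 genes in order of their lists; filled circles give the fit of 6 arrays with its 95% interval (n = 3 per group) and open diamonds the fit without control 2. Most circles lie a little left of 0 with intervals that cover it, and Cox7a1 and Cox6a2 stand at the lower and upper end.

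Because same-numbered arrays deviated together over all genes, the difference was also read within each number. Over the 92 genes alone, closeness was seen only for number 2: control 1 was nearest to control 3, at a median absolute difference of 0.11, and lay 0.14 from knockdown 1. For number 1 the median difference, knockdown minus control, was -0.11 over the 92 genes and 69 were lower. For number 2 it was -0.02 with 57 lower, and for number 3 it was -0.10 with 67 lower. Over all genes the medians were -0.02, 0.0013 and 0.0065, and 55.3%, 49.4% and 48.1% were lower. The shift was therefore smallest for number 2, where the arrays were close to each other. Lower values in all 3 numbers were found for 33 of the 92 genes (35.9%), against 16.5% of all genes and 19.4% of the bright ones. Higher values in all 3 numbers were found for 3 of the 92 (Ndufc2, Cox5a and Cox6a2), against 14.5% of all genes. With the replicate number as a block the fit again called 0 genes, and the smallest adjusted p among the 92 was 0.55 (limma). At an unadjusted p under 0.05 the blocked fit had 6 lower and 1 higher of the 92, against 4.56% and 4.45% of all genes.

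**Figure D2:**
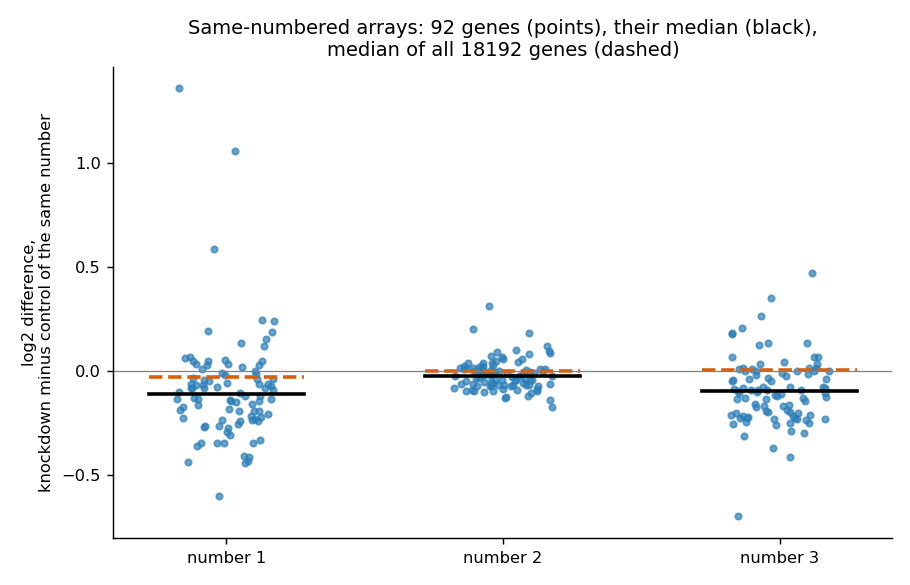
Difference in log2 value between the knockdown and the control array of the same number; each point is 1 of the 92 genes, the black bar their median and the dashed bar the median of all genes. The black bar lies below the dashed bar for each number, at -0.11, -0.02 and -0.10, and the points of number 2 are the most tightly packed.

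Without control 2, the shift had the same direction. Of the 92 genes 67 were below 0 (72.8%, against 53.2% of all genes), and the median was -0.11. The only call was Cox7a1, 1 of 92 genes, while 1.6% of all genes were called in that fit in either direction and 0.704% of all genes were called as lower. Nothing particular to the 92 genes is read from a single call. Lower genes with an unadjusted p under 0.05 numbered 14 of 92 and higher ones 0, compared with 6.82% and 6.57% of all genes. The lower ones included Ndufb7, at -0.36 (SE 0.09), Cyc1, at -0.34 (SE 0.09), and Uqcr11, at -0.39 (SE 0.11), with adjusted p-values of 0.13, 0.15 and 0.18 (limma).

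Complex I takes electrons from NADH, and its nuclear subunits formed the largest group. The median log2 fold change was -0.09 over 34 genes, of which 28 were below 0 and 0 were called. Among the 6 core subunits, which carry the flavin and iron-sulphur clusters, 4 were below 0 and the median was -0.02. Ndufs7, an iron-sulphur subunit close to the ubiquinone site, read 9.27, 9.22 and 9.42 in controls 1, 2 and 3, and 8.86, 9.18 and 9.26 in knockdowns 1, 2 and 3. Knockdown 1 was the low array and the groups overlapped, at -0.20 (SE 0.13, 95% interval -0.50 to 0.10). Ndufs1, the largest core subunit, stood at the other end with 0.01 (SE 0.15), and its sign turned with the deposited scaling and with median centring, and without control 2, to -0.11.

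Accessory subunits of complex I surround the core and serve its assembly and stability. Of 28 such genes 24 were below 0, with a median of -0.09 and a range from -0.25 to 0.08. Ndufb4, counted among those above 0, read only 1.28 to 4.59 intensity units, near the floor of the scale. Its brighter probe sets, which name several genes and were not counted, gave -0.16 (SE 0.07) and -0.14 (SE 0.08). The lowest of the 28 was Ndufb7, of the face of the membrane arm towards the intermembrane space. It read 9.78, 9.37 and 9.67 in controls 1, 2 and 3, and 9.34, 9.35 and 9.38 in knockdowns 1, 2 and 3. Only control 2 came near the knockdown values. The fitted difference was -0.25 log2 units (SE 0.12, 95% interval -0.52 to 0.03). Ndufc2 was the highest at 0.08 (SE 0.09), with readings of 9.54, 9.74 and 9.62 in the controls and 9.66, 9.84 and 9.63 in the knockdowns. Its groups overlapped throughout. Ndufb8 and Ndufc1, whose groups did not overlap, differed by -0.14 (SE 0.08) and -0.09 (SE 0.07).

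Complex I assembly factors help to build the complex without being part of it. Of 8 genes 6 were below 0, with a median of -0.04 that became -0.12 without control 2. Ndufaf3, which acts on the arm that binds ubiquinone, was lowest at -0.20 (SE 0.14), with 6.14, 6.34 and 6.32 in the controls and 5.80, 6.27 and 6.12 in the knockdowns. Ndufaf1 was highest at 0.08 (SE 0.08). Ndufaf1 read 6.74, 6.87 and 6.89 in the controls and 6.93, 6.94 and 6.88 in the knockdowns, and both genes had overlapping groups.

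Complex II, succinate dehydrogenase, belongs to the citric acid cycle as well as to the chain. Of its 4 subunits 3 were below 0 and the median was -0.10. Sdha, the flavoprotein, stood at -0.07 (SE 0.12) and the iron-sulphur protein Sdhb at -0.13 (SE 0.15). Sdhc, a membrane anchor, had the lowest value. It read 9.12, 9.001 and 9.17 in controls 1, 2 and 3, and 8.77, 8.91 and 9.01 in knockdowns 1, 2 and 3, which gives -0.20 (SE 0.09, 95% interval -0.42 to 0.02). Knockdown 3 reached the level of control 2, so the groups overlapped slightly. The other anchor, Sdhd, pointed upwards at 0.06 (SE 0.14).

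Complex III passes electrons from ubiquinol to cytochrome c. With cytochrome c it had the lowest median of the lists with at least 3 genes, -0.12 over 10 genes, 8 of them below 0, and 6 of the 10 were lower in all 3 numbers. Cyc1, cytochrome c1, read 10.72, 10.40 and 10.68 in controls 1, 2 and 3, and 10.39, 10.31 and 10.38 in knockdowns 1, 2 and 3. All knockdown values lay below the lowest control, which was control 2. The fit gave -0.24 (SE 0.10, 95% interval -0.49 to 0.01, adjusted p = 1.00 with limma). Uqcr11, a small subunit of the complex, was at -0.24 (SE 0.14) and overlapped, because control 2 read 9.37 and knockdown 3 read 9.57. Uqcrc2, a core protein, was the highest of the list at 0.07 (SE 0.10).

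Cycs, cytochrome c itself, differed more between the arrays numbered 2 and the others than between the groups. It read 10.68, 10.12 and 10.83 in controls 1, 2 and 3, and 10.64, 10.16 and 10.46 in knockdowns 1, 2 and 3. The lowest readings were those of both arrays numbered 2, and the group difference was -0.12 (SE 0.21). Ndufb10, an accessory subunit of complex I, and Uqcr10, of complex III, did the same, lying 0.53 and 0.49 lower on the arrays numbered 2 than on the others, as did Cycs by 0.51. Uqcrb, of complex III, and Atp5d, the delta subunit of ATP synthase, lay 0.25 and 0.27 higher there, and Cox6a2 lay 1.07 higher. In 65 of the 92 genes (70.7%) control 2 departed from the other controls in the same direction as knockdown 2 from the other knockdowns, and so did 70.1% of all genes. The difference between number 2 and the other numbers was larger than that between the groups in 54 of the 92 genes. Its median size was 0.12 in these genes and 0.13 over all genes, against 0.09 and 0.08 for the group difference. These genes were picked after their values were seen.

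**Figure D3:**
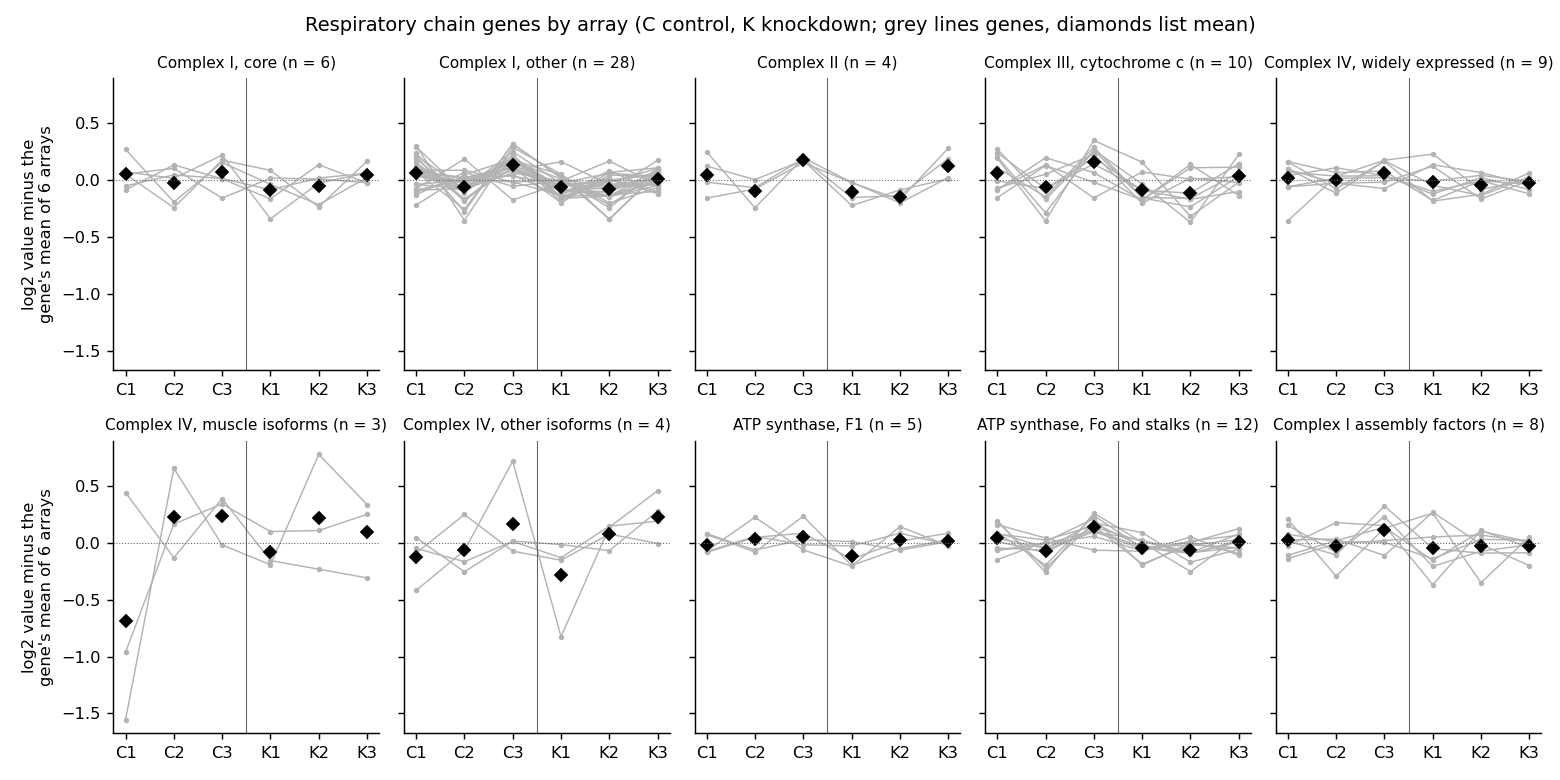
Log2 value of each gene minus its own mean over the 6 arrays, in panels by list; grey lines are genes, black diamonds the list's mean, C1 to C3 the controls and K1 to K3 the knockdowns. In the widely expressed lists the diamonds stay within 0.3 of 0 and control 3 is the highest control, whereas the muscle isoforms of complex IV spread by more than 1 unit in control 1.

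Promoter sequences are shown for complex IV, because its muscle isoforms parted in direction and its widely expressed subunit Cox6a1 had the smallest p of the 74 respiratory chain genes with a mean of at least 8. The sequences were taken from RefSeq (build GRCm38.p6), whose promoter windows cover 250 bases before and 50 after a gene's start, and 75 of the 92 genes had at least 1 window. Each line gives the 250 bases before the start, 5′ to 3′ on the gene's strand, with motif matches in capitals.
Cox7a1, chr7:30183921-30184170, plus strand: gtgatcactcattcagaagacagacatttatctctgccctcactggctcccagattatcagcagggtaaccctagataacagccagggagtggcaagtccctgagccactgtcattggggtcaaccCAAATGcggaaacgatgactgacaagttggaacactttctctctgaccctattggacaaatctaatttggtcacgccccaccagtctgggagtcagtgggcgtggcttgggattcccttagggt
Cox8b, chr7:140900447-140900696, minus strand: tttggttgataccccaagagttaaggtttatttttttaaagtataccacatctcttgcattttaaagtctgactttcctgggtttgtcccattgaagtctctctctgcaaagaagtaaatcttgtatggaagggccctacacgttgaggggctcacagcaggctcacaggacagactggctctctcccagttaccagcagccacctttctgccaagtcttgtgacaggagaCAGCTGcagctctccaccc
Cox6a1, chr5:115348959-115349208, minus strand: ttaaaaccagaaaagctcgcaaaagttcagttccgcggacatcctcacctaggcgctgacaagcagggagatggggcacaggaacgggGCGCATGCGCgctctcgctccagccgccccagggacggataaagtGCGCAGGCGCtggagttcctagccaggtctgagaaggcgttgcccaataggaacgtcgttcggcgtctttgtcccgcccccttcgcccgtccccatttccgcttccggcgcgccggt

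On both strands 4 motifs were searched: the site of nuclear respiratory factor 1, that of GABP (also called nuclear respiratory factor 2), that of oestrogen-related receptors, and CANNTG, the E-box bound by myogenic factors. A stretch could match several motifs, and a match on both strands counted once. In the sequences above, the capitals are an E-box 124 bases before the start of Cox7a1, an E-box 19 bases before that of Cox8b, and in Cox6a1 matches to the nuclear respiratory factor 1 motif 162 and 117 bases before the start. Over the whole windows, the nuclear respiratory factor 1 motif was present in 18 of 80 windows of respiratory chain genes (22.5%) and in 4.60% of all 32851 windows. The GABP motif was present in 5 of 80 (6.25%) against 3.89%, the oestrogen-related receptor motif in 2 (2.5%) against 0.423%, and the E-box in 55 (68.8%) against 72.3%. These are counts of letters in a short window, and binding was not measured.

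Complex IV, cytochrome c oxidase, hands the electrons to oxygen. Of its 9 widely expressed subunits 6 were below 0, with a median of -0.10. Cox7c, counted among those above 0, read only 3.39 to 13.3 intensity units, near the floor of the scale. Cox6a1, the widely expressed partner of Cox6a2, read 11.08, 10.98 and 10.998 in controls 1, 2 and 3, and 10.74, 10.91 and 10.80 in knockdowns 1, 2 and 3. The groups did not overlap, with the arrays numbered 2 closest to each other. The fitted difference was -0.20 log2 units (SE 0.08, 95% interval -0.40 to -0.01, adjusted p = 1.00 with limma), and the second probe set of Cox6a1 gave -0.24 (SE 0.14). The groups also did not overlap for Cox4i1 and Cox5b, at -0.10 (SE 0.07) and -0.12 (SE 0.08). Cox8a, the partner of Cox8b, stood at -0.16 (SE 0.11). Cox5a pointed upwards at 0.11 (SE 0.08), and Cox7a2, the partner of Cox7a1, was at 0.01 (SE 0.07, 95% interval -0.16 to 0.18).

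The muscle isoforms of complex IV pointed in different directions. Cox7a1 was the lowest of all 92 genes, while Cox6a2 and Cox8b were the highest. Cox7a1 read 5.78, 5.20 and 5.72 in controls 1, 2 and 3, and 5.18, 5.10 and 5.03 in knockdowns 1, 2 and 3. As intensities these were 38.4, 21.3 and 36.1 units in the controls and 20.5, 18.4 and 16.4 units in the knockdowns. Controls 1 and 3 were high, control 2 lay just above the highest knockdown, and the groups did not overlap. With 6 arrays the fit gave a log2 difference of -0.47 (SE 0.16, 95% interval -0.85 to -0.08, unadjusted p = 0.024, adjusted p = 1.00 with limma).

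Without control 2, Cox7a1 fell by 0.65 log2 units (SE 0.09), with an adjusted p of 0.034 in limma. That fit drops the control nearest to the knockdowns. The call was just past the threshold and did not hold in every variant of the fit. Still without control 2, the adjusted p was 0.11 with an offset of 1, 0.064 with an offset of 64, 0.052 with the deposited scaling and 0.058 with median centring, and it was 0.042 with trended and robust variances. Leaving out both arrays numbered 2 gave -0.65 as well, with an adjusted p of 0.079 without and 0.024 with the replicate block (limma). Without the block 0 of the 92 genes and 0.66% of all genes were called in 4 arrays, and with it 1 of the 92 was, as lower, and 1.69% of all genes were lower. With 4 arrays, the block leaves little spread within a gene to be measured, so its adjusted p-values are read with caution. These variants were added after the data were seen, except those that leave out both arrays numbered 2. The gene lies near the floor of the scale, so the offset sets the size, which was -1.01 (SE 0.17) with an offset of 1 and -0.31 (SE 0.03) with 64.

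Cox6a2, the muscle counterpart of Cox6a1, read 6.37, 8.58 and 7.90 in controls 1, 2 and 3, and 7.73, 8.70 and 8.26 in knockdowns 1, 2 and 3. Control 1 was far below the others and the groups overlapped, at 0.61 (SE 0.56, 95% interval -0.71 to 1.94). The differences within number 1, 2 and 3 were 1.36, 0.12 and 0.35, and the second probe set gave 0.56 (SE 0.58). Cox8b, the muscle counterpart of Cox8a, read 7.35, 8.48 and 8.66 in the controls and 8.41, 8.42 and 8.57 in the knockdowns. Again control 1 was the low array, and the remaining 5 lay within a narrow range. The log2 fold change was 0.30 (SE 0.33).

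Without control 1, the log2 fold changes were -0.01 for Cox6a2 and -0.10 for Cox8b. Control 1 was also the array with the lowest summed intensity of the 18 myogenic markers, given above, and their mean log2 level was 10.12 there against 10.39 to 10.42 on the other arrays. The part of this in Cox6a2 and Cox8b was not tested. Cox7a1 had no such pattern, since control 1 was its highest array.

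**Figure D4:**
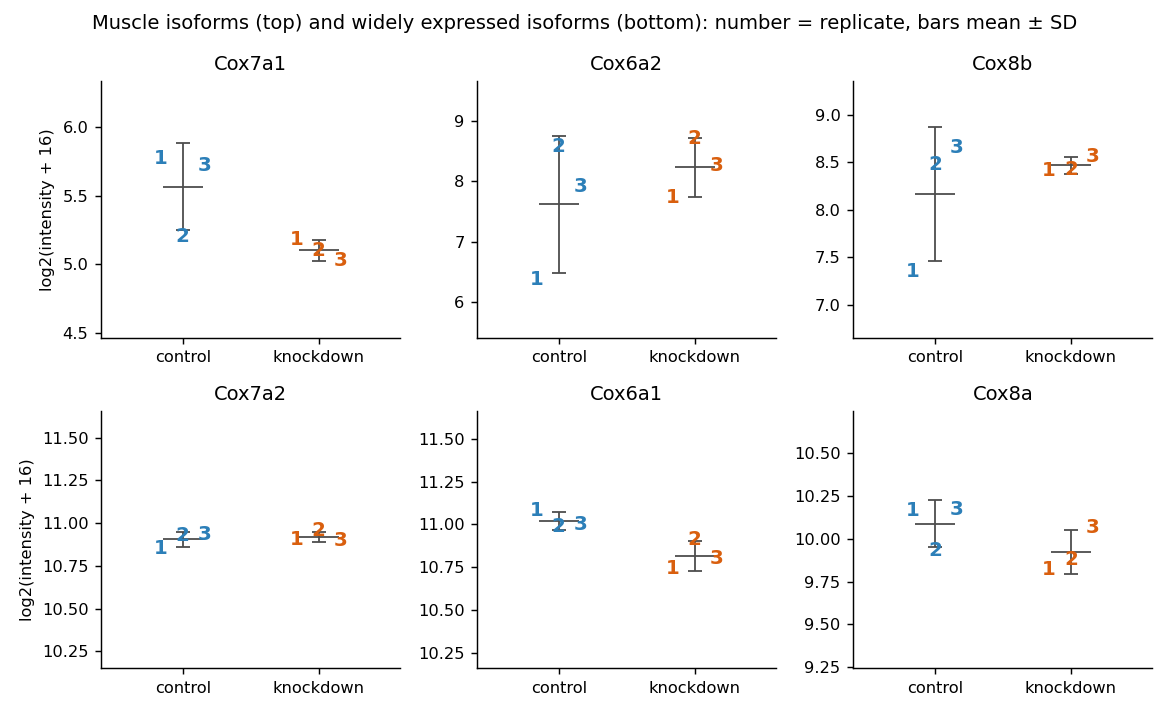
Log2(intensity + 16) of the muscle isoforms Cox7a1, Cox6a2 and Cox8b (top) and their widely expressed partners Cox7a2, Cox6a1 and Cox8a (bottom) in the control and knockdown arrays; digits mark the replicate number, bars the mean ± SD of n = 3, and the vertical range differs between panels. Control 1 is lowest for Cox6a2 and Cox8b, and controls 1 and 3 are highest for Cox7a1.

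Of the isoforms of complex IV from other tissues, Cox4i2, Cox6b2 and Cox7b2 lay under the median gene and Cox8c above it. Cox4i2, known from lung, stood at 0.14 (SE 0.11), Cox8c at 0.13 (SE 0.13), and Cox6b2, a testis isoform, at -0.15 (SE 0.40). Cox6b2 varied with the number, reading 4.92, 5.27 and 6.06 in the controls and 4.51, 5.47 and 5.80 in the knockdowns. Its lowest values were those of number 1 in both groups, so the large error covers differences between numbers. Cox7a2l, which joins complexes III and IV into supercomplexes, read 9.76, 10.11 and 9.65 in the controls and 9.78, 10.02 and 10.12 in the knockdowns, with 0.13 (SE 0.15). Ndufa4, a subunit now placed with complex IV, was at -0.07 (SE 0.08), and its dim relative Ndufa4l2, known to respond to hypoxia, at -0.19 (SE 0.15).

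ATP synthase makes ATP in its F1 head as protons pass through its Fo part. Of 17 genes 14 were below 0, with a median of -0.06 and a range from -0.17 to 0.03. In the F1 head, 4 of 5 were below 0, with the catalytic beta subunit Atp5b at -0.15 (SE 0.11) and the central stalk subunit Atp5c1 at 0.03 (SE 0.08), which turned below 0 with the deposited scaling and with median centring. Of 12 genes for Fo and the stalks 10 were below 0, with a median of -0.09. Atp5o, which joins the peripheral stalk to the head, read 10.32, 10.27 and 10.39 in controls 1, 2 and 3, and 10.06, 10.22 and 10.20 in knockdowns 1, 2 and 3. The groups did not overlap but came close, at a difference of -0.17 (SE 0.08, 95% interval -0.36 to 0.03). Atp5l, a small membrane subunit, was at 0.0086 (SE 0.09) and turned below 0 with the same scalings.

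Genes that serve the chain without belonging to it were read from lists of assembly factors, regulators of mitochondrial biogenesis, citric acid cycle enzymes and carriers, and 0 were called with 6 arrays or without control 2. Of 38 further assembly factors 28 were below 0 (median -0.05), with Cox19, which serves complex IV, at -0.17 (SE 0.09) and Sdhaf4, which serves complex II, at -0.20 (SE 0.11). Atpif1, the inhibitor of ATP synthase, was at -0.16 (SE 0.11). Of 17 citric acid cycle and pyruvate dehydrogenase genes 12 were below 0 (median -0.04), yet subunits of a single enzyme, isocitrate dehydrogenase, pointed in opposite directions. Idh3a was at 0.34 (SE 0.14) and Idh3b at -0.29 (SE 0.13). Of 21 carrier and electron transfer genes 17 were below 0 (median -0.05), with Etfb, of the electron transfer flavoprotein, and Gpd2, the mitochondrial glycerol phosphate dehydrogenase, both at -0.20 (SE 0.12 and 0.13).

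Regulators of mitochondrial biogenesis showed no common side, with 13 of 24 below 0 and a median of -0.02. Ppargc1b, a coactivator of the PGC-1 family, read 7.87, 6.94 and 7.60 in controls 1, 2 and 3, and 7.23, 6.95 and 7.01 in knockdowns 1, 2 and 3. Controls 1 and 3 were high and control 2 was as low as the lowest knockdown, close to the array pattern of Cox7a1. The pattern is not particular to these genes. Controls 1 and 3 also stood out as high in Myf5 and Dcn, given above, and 0.704% of all genes were called lower without control 2. A link between Ppargc1b and Cox7a1 was not tested. The log2 fold change was -0.41 (SE 0.23), and -0.67 (SE 0.13, adjusted p = 0.075 with limma) without control 2. Ppargc1b fell by 0.61 (SE 0.09, adjusted p = 0.026 with limma) when both arrays numbered 2 were left out and the replicate number was a block. In that fit 3.96% of all genes were called, and little spread within a gene is left to be measured. Without the block, the same 4 arrays gave -0.61 (SE 0.14) with an adjusted p of 0.15 (limma), and Ppargc1b was not called. Polg, the polymerase of mitochondrial DNA, pointed the other way at 0.27 (SE 0.12). Of the other PGC-1 family members, the dim Ppargc1a stood at 0.07 (SE 0.15) and Pprc1 at -0.02 (SE 0.17).

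Probe sets of the same gene mostly pointed the same way. Of 52 genes with several probe sets, 11 had at least 1 on the opposite side, and among the 45 with several probe sets at or above the median gene only 4 did. Taken on their own, 136 of the 184 probe sets were below 0.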

How the data were processed

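The authors deposited one intensity per probe set and array on a linear scale, for total RNA labelled by the standard Affymetrix protocol. GCOS and PLIER are named in the submitters' processing notes, and the background correction and scaling behind the deposited intensity values are not given in the sources used here. Quantile normalization was added because the upper quartile of log2(intensity + 16) ranged over 0.15 across arrays, above a limit of 0.1 set for it. Control probe sets (64) were left out, and so were 4 probe sets in which a deposited value equalled the gene's Entrez number. This left 45033, of which 34941 name 1 gene, 932 several and 9160 none. A gene took its brightest single-gene probe set. The groups were compared with limma 3.58.1 (lmFit and eBayes, R 4.3.3) over 18192 genes with p-values adjusted by Benjamini-Hochberg, and a two-sided threshold of 0.05; the code was tested on simulated data. Arrays give no read depth, and their number limits the precision.

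Members and gene lists were chosen with earlier results of these data known. Genes were named by rule: the muscle isoforms and their partners, Cox4i1, Cox4i2, Cycs, Cyc1, the subunits of complex II, Ndufa4 and its relative, Cox7a2l, Atpif1 and Prdm2; genes past the threshold; the extremes of all members and of each list; and the 2 smallest p-values in each list of other pathway genes. Genes outside it are named where groups did not overlap, where values were higher in all numbers, or where the arrays numbered 2 stood out, and were chosen after their values were seen. Ppargc1a and Pprc1 are named beside Ppargc1b, and cell type markers where they differed between arrays. Symbols of all 92 genes matched the RefSeq table by Entrez number.

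The labels give numbers but no pairing. Deviations from the group means correlated at 0.34, 0.59 and 0.66 between same-numbered arrays over all genes, so a fit blocked on that number was read too. Other alternatives were the scaling, the offset, the probe set, a filter on dim genes, the variance model, array weights and leaving out arrays.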

Additional observations from a re-analysis of the deposited data

How the results depend on the processing

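With 6 arrays, 0 of the 92 genes were called under every scaling, offset, filter, probe set rule and variance model, with array weights, and with the replicate block, where the smallest adjusted p was 0.55 (limma). The block called 0 genes in all and changed no call. Leaving out 1 array gave 0 to 291 called genes and 0 to 1 among the 92, both highest without control 2. Leaving out both arrays numbered 2 gave 120 called genes, and 721 with the replicate block, where 1 of the 92 (Cox7a1) and 1 biogenesis regulator (Ppargc1b) were called. Genes below 0 numbered 136 of 184 when each probe set was tested on its own, and from 57 without control 3 to 77 without control 1 when 1 array was left out. The median over the 92 genes then ran from -0.11 to -0.04.

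When 1 array was left out, the list medians ran from -0.08 to 0.03 for F1, -0.12 to -0.00952 for Fo and the stalks, -0.12 to -0.0206 for complex I assembly factors, -0.06 to -0.02 for its core and -0.16 to -0.05 for its other subunits. They ran from -0.18 to -0.03 for complex II, -0.22 to -0.04 for complex III with cytochrome c, and -0.10 to -0.0487 for the widely expressed subunits of complex IV. For its muscle isoforms they ran from -0.10 to 0.55, for other tissue isoforms from -0.02 to 0.20, for Cox7a2l from 0.04 to 0.27, and for Ndufa4 with its relative from -0.21 to -0.02. The latter median was -0.38 with an offset of 1. The widely expressed complex IV median was -0.0634 over single probe sets and -0.12 without both arrays numbered 2, with or without the replicate block.

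Single genes near 0 turned sign. Atp5c1 was at -0.0147 with the deposited scaling and -0.0164 with median centring. With these and with array weights, Atp5l was at -0.0203, -0.0220 and -0.0225, and Ndufs1 at -0.00652, -0.00826 and -0.0462. Cox7a2 was at -0.00235 with array weights. Leaving out 1 array moved Cox6a2 from -0.0114 to 1.09, Cox8b from -0.10 to 0.55, Cox6b2 from -0.42 to 0.22, Cycs from -0.33 to 0.0230, Sdha from -0.18 to 0.00938, Sdhd from -0.0691 to 0.16, and Ndufs1 from -0.11 to 0.13. It moved Cox7a2 from -0.0120 to 0.0276, Atp5c1 from -0.0103 to 0.0602, Atp5l from -0.0279 to 0.0599, and Prdm2 from -0.0122 to 0.31. The causes were not tested. Over 42 named genes and all settings, 677 of 710 values kept their direction and side of the threshold.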
